A study of Mus musculus with 27 samples.

Results

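The nuclear genes for the mitochondrial respiratory chain were followed across sorted cells of the inflamed mouse colon, with and without the methyl-CpG binding protein Mbd2. Members were the probes of an Illumina mouse bead array whose gene symbol begins with Nduf, Uqcr, Cox4, Cox5, Cox6, Cox7, Cox8 or Atp5, or is Sdha, Sdhb, Sdhc or Sdhd. The rule used names and no measured value, and it found 119 probes of 81 symbols among 45281 probes of 30869 symbols. Complex I contributed 8 probes of 7 core subunits and 1 probe of the assembly factor Ndufaf1. The other 45 Nduf probes, of 29 symbols, were grouped as accessory by name alone, so not each of them need be a complex I subunit. Ndufa4 in that group is now placed with complex IV. Complex II had 8 probes of 4 genes, and complex III had 8 probes of 7 genes. Complex IV had 12 probes of 8 widely expressed subunits, 8 probes of 7 tissue-restricted isoforms, and 4 probes of Cox7a2l and Cox4nb. The ATP synthase had 5 probes of 5 genes of its F1 head and 20 probes of 11 genes of its membrane part, stalk and related symbols.

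Some old symbols carry the prefix of a complex without being a subunit of it. RefSeq accessions matched 102 of the 119 probes and 76 of the 81 symbols, and 5 symbols have since been renamed. Atp5f1 is now Atp5pb, the b subunit of the peripheral stalk, and Uqcr is now Uqcr11. Atp5s is Dmac2l and Atp5sl is Dmac2, both related to assembly, while Cox4nb is Emc8, a subunit of a membrane protein insertion complex of the endoplasmic reticulum. They were kept because the rule took them. Of the 119 probes, 92 were detected on every one of the 25 colon arrays and 7 on none, where detected means a detection p under 0.05 against the array's negative controls. The subunits Cox7c, Cox8a, Atp5g1, Ndufs5 and Atp5i were not analysed here.

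The respiratory chain oxidises NADH at complex I and succinate at complex II, passes the electrons through complex III and cytochrome c to complex IV, which reduces oxygen, and uses the proton gradient so built to make ATP at the ATP synthase. Core subunits carry the redox centres or the catalytic sites, and accessory subunits surround them. Most subunits are encoded in the nucleus and are made in nearly every cell, whereas a few complex IV subunits have isoforms restricted to muscle, testis or other tissues. Myeloid cells are known to shift between oxidative phosphorylation and glycolysis with their state of activation.

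The mice were C57BL/6, either wild type (WT) or Mbd2-/-, a germline loss of the gene in every cell, and colitis was induced with dextran sodium sulphate (DSS) in the drinking water, so all colon groups shared the treatment. Monocytes (CD11b+ Ly6C+), macrophages (CD11b+ Ly6C- MHC-II+ F4/80+) and conventional type 1 dendritic cells (cDC1s, CD11b- CD11c+ CD103+) were sorted from the colon, with cells of several mice pooled where needed. There were 5 WT and 5 Mbd2-/- monocyte arrays, 5 WT and 5 Mbd2-/- macrophage arrays, and 2 WT and 3 Mbd2-/- cDC1 arrays. A CD4+ T cell array of each genotype came from the spleen in a T cell transfer model of colitis, which is another tissue and another disease model, and with 1 array a genotype it has no replicate check. Ages and, for each array, the number of pooled mice were not used here. In such bulk samples fewer cells of a type and less RNA per cell cannot be told apart.

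Each array measured between 16024 and 18608 detected probes, with mean raw intensities of 171.5 to 353.1. The cDC1 genotypes did not overlap in either. WT cDC1 arrays had 17443 to 17635 detected probes and mean intensities of 264.6 to 291.9. Mbd2-/- cDC1 arrays had 16383 to 16572 and 171.5 to 227.6. The part of this difference in the cDC1 calls below was not tested. Precision is limited by how many arrays each group has. The cDC1 arrays carried their defining markers, with a summed intensity of 8 markers including Xcr1 and Clec9a of 13190 to 14990 against 1116 to 2291 on monocyte and macrophage arrays. Macrophage markers summed to 35790 to 43110 on macrophage arrays. Markers of epithelial cells summed to 4523 to 17150 across the colon arrays, against 254.1 and 218.8 on the T cell arrays. The part of epithelial cells in the results was not tested. Ccr2, listed as a monocyte marker, was detected on 1 of 5 WT and on no Mbd2-/- monocyte array, although the other 3 monocyte markers were detected on every monocyte array. The Mbd2 probe was not above background on any array and so gives no check of genotype. Of 103 tested member probes, Mbd2-/- monocyte 8 was the lowest of its 5 arrays for 39 (37.9%, against 23.2% of all tested probes), WT macrophage 12 for 36 (35% against 23.9%) and Mbd2-/- macrophage 18 for 36 (35% against 17.5%). WT macrophage 15 was lowest for 33 (32% against 23.8%). WT macrophage 12 was also the highest of its 5 arrays for 33 of the 103 probes, whereas Mbd2-/- macrophage 18 was highest for 6. WT macrophage 12 decided calls in macrophages, and genotype values there are also given without it where they change.

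Levels below are log2 normalised intensities, differences are log2 fold changes, errors on fold changes are SE, and errors on levels are SD. A call is a Benjamini-Hochberg adjusted p below 0.05 in limma over all probes tested in that comparison. The first comparison asked whether Mbd2 loss altered the chain in each cell type. There was no call in monocytes, and there were 4 in macrophages and 9 in cDC1s.

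In monocytes, no member passed the test in limma. The background over all 16190 probes tested was 0.852% higher and 0.945% lower in Mbd2-/- cells. Of the 99 member probes tested, 6 had an unadjusted p below 0.05 and all 6 were higher in Mbd2-/- monocytes. That count is near what this threshold passes where nothing differs, and the share of all probes under it is not given here. The median member difference was 0.09, against -0.02 over all probes, and 78 of the 99 members were above 0, whereas scaling to the median of all probes moved both medians, to -0.17 and -0.26. This lean of the median over all probes by 0.11 lay between 0.09 and 0.11 under every scaling tried, but none of its members could be called. Plasma and B cell markers summed to 349.7 to 435.9 on WT and 184.7 to 306.1 on Mbd2-/- monocyte arrays, and neutrophil markers to 2211 to 7493 and 6111 to 8236. The part of these other cells in the lean was not tested. Adding a fold of at least 1 on the log2 scale left 0.426% of all probes and no member.

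Sdhb is the iron-sulphur subunit of complex II, which hands electrons from succinate towards ubiquinone. Its levels were 10.24, 10.07, 10.24, 10.14 and 10.38 on WT monocyte arrays and 10.58, 10.66, 10.44, 10.70 and 10.84 on Mbd2-/- arrays. The lowest Mbd2-/- monocyte array lay above the highest WT array. The difference was 0.44 ± 0.18 with an adjusted p of 0.259 in limma, so it was not a call. A further probe of the gene gave 0.29 ± 0.20 and another, which was dim, gave 0.06 ± 0.22. Sdhc, a membrane anchor of the same complex, gave 0.31 ± 0.14 with an adjusted p of 0.322. The catalytic F1 subunit Atp5b differed by 0.04 ± 0.10 and the complex IV subunit Cox4i1 by 0.08 ± 0.09. The complex I subunits Ndufv1 and Ndufs3 had differences of 0.14 ± 0.09 and 0.14 ± 0.11, neither past the test.

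In macrophages, 4 probes of 3 genes were higher in Mbd2-/- cells and none was lower, out of 99 tested. All-probe backgrounds were 3.05% higher and 2.55% lower, so the share of members called was close to that of all probes. With a fold of at least 1 the background was 1.51%, and 3 member probes passed. The median member difference was -0.02 against -0.07 over all probes, a gap of 0.04 with quantile normalisation that turned to -0.01 under both median scalings.

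Atp5f1, the peripheral stalk subunit b that holds the F1 head in place, was among the genes called. One probe had WT levels of 8.93, 6.79, 9.14, 8.61 and 9.30 and Mbd2-/- levels of 9.51, 9.28, 9.65, 9.99 and 10.13. The groups overlapped only through WT macrophage 15 and Mbd2-/- macrophage 17, and WT macrophage 12 was lowest. The difference was 1.15 ± 0.32 with an adjusted p of 0.0396, and it fell to 0.71 ± 0.21 with an adjusted p of 0.0770 without WT macrophage 12. A second probe gave 1.49 and an adjusted p of 0.0553, and the remaining 2 probes, which were dim, gave -0.24 and -0.20. Ndufs4, an accessory subunit at the NADH-oxidising arm of complex I, had 1 of 4 probes called at 0.55 ± 0.16 with an adjusted p of 0.0440. That call was lost without WT macrophage 12, where the value was 0.35 and the adjusted p 0.113.

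The count of macrophage calls was as fragile as these genes. It fell from 4 to 1 when WT macrophage 12, WT macrophage 14, Mbd2-/- macrophage 19 or Mbd2-/- macrophage 20 was left out, and to 2 without Mbd2-/- macrophage 18. It rose to 7, of which 6 were higher, without WT macrophage 15. Within columns 13 to 18 of the table, Atp5f1 differed by 1.77 and within columns 19 to 24 by 0.52, and no member passed within either set. With sets of 6 table columns as a fixed term no macrophage call remained, nor with macrophages normalised and fitted alone, nor without both WT macrophage 12 and Mbd2-/- macrophage 20. Neutrophil markers summed to 529.8 to 1783 on WT and 1341 to 5227 on Mbd2-/- macrophage arrays, with 3 of the 5 neutrophil markers on the array detected on every array of both groups, and Camp and Ngp detected on no WT array. Plasma and B cell markers summed to 571.9 to 942.8 and 325.5 to 675.8. Their part in the result was not tested.

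Several subunits at the centre of the chain changed little between WT and Mbd2-/- macrophages. Atp5b differed by -0.05 ± 0.10, Cox4i1 by -0.02 ± 0.09, Cox6c by -0.09 ± 0.11 and Uqcrc2, a core subunit of complex III, by 0.05 ± 0.11. Cox7a2l, grouped here with complex IV, gave 1.16 ± 0.35 with an adjusted p of 0.0502 at one probe and 0.38 ± 0.14 with an adjusted p of 0.0900 at the other. Neither passed the test, and without WT macrophage 12 they gave 0.92 and 0.25.

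**Figure D1:**
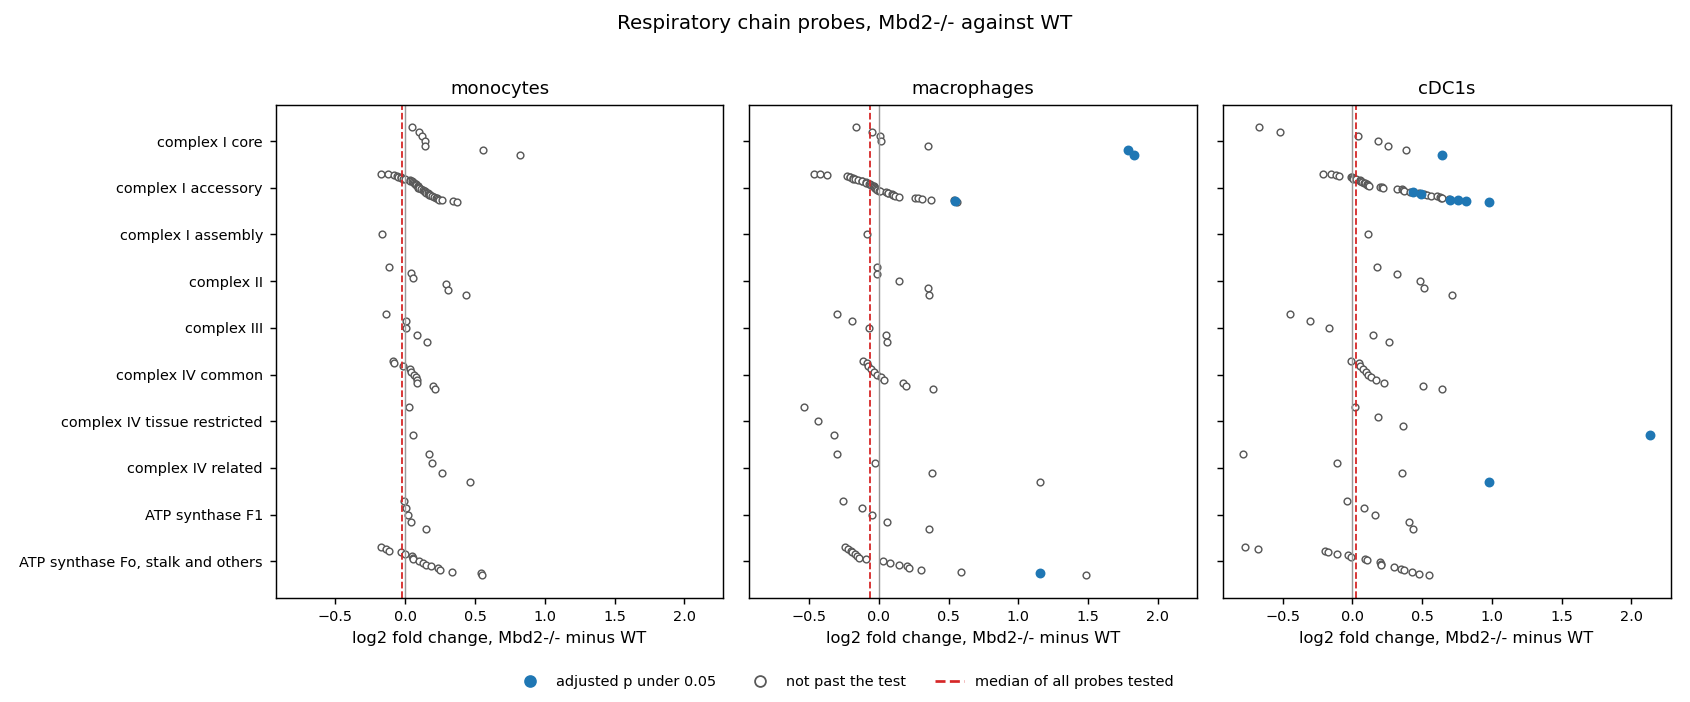
Each point is a member probe, placed by its log2 fold change of Mbd2-/- over WT on the x axis and by its role in the chain on the y axis, with monocytes, macrophages and cDC1s in separate panels. Filled points passed the test: none in monocytes, 4 in macrophages and 9 in cDC1s, all of them to the right of 0.

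In cDC1s, 9 member probes of 9 genes were higher in Mbd2-/- cells and none was lower, of 102 tested. The background was 3.43% higher and 3.25% lower. The median member difference was 0.18 against 0.03 over all probes, and 80 of 102 members were above 0. With a fold of at least 1 the background was 1.93% and the only member left was Cox6a2. By role, 6 of 42 accessory probes and 1 of 7 core probes of complex I were called, while none of 23 ATP synthase probes, of 5 complex II probes or of 5 complex III probes was.

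Cox6a2 is the heart and skeletal muscle isoform of subunit VIa of complex IV, and it had the largest change. Its levels were 4.49 and 4.69 on the WT cDC1 arrays and 7.08, 5.78 and 7.32 on the Mbd2-/- arrays. All 3 Mbd2-/- arrays were well above both WT arrays, of which only 1 reached the detection threshold. The difference was 2.13 ± 0.31 (95% confidence interval 1.49 to 2.78), with an adjusted p of 0.000531. It stayed a call in 11 of 12 alternatives with quantile, median or loess scaling or with an array left out, between 0.94 and 2.63, and was lost where cDC1s were normalised and fitted alone (1.85, adjusted p 0.354).

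The gene was also measured elsewhere, and the order of the groups differed by genotype. On all 10 macrophage arrays it was detected, at 5.89 to 6.68 with a median of 5.96 in WT and 5.49 to 5.85 with a median of 5.64 in Mbd2-/- cells. No Mbd2-/- macrophage array reached the lowest WT one, yet the difference of -0.44 ± 0.21 did not pass the test (adjusted p 0.218). The highest WT value was that of array 12, the next was 5.99, and without array 12 the difference was -0.29 ± 0.21 (adjusted p 0.528). Monocyte arrays lay at 4.33 to 4.91, with 2 of 5 arrays detected in each genotype, and neither T cell array detected it. Mbd2-/- cDC1 arrays 27 and 30 were above every macrophage array. The widely expressed isoform Cox6a1 differed by 0.05 ± 0.20 between Mbd2-/- and WT cDC1s at one probe and 0.23 ± 0.21 at the other.

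Some marker sums differed between the cDC1 genotypes as well. Macrophage markers summed to 1423 and 1464 on the WT arrays and to 2394, 1686 and 3931 on Mbd2-/- arrays 27, 28 and 30, the same order of arrays as for Cox6a2. Macrophage arrays had marker sums of 35790 to 43110. Their Cox6a2 levels lay below those of Mbd2-/- cDC1 arrays 27 and 30 and on both sides of that of array 28. Neutrophil markers summed to 570.1 to 632.4 on WT and to 1025 to 2571 on Mbd2-/- cDC1 arrays. Monocyte markers summed to 6853 and 6650 on WT and to 7717, 9838 and 9410 on Mbd2-/- cDC1 arrays. Plasma and B cell markers summed to 120.3 and 133.8 on WT and to 162.2, 177 and 148.7 on Mbd2-/- cDC1 arrays. CD4 T cell markers overlapped, at 2831 and 652.6 on WT and 1174, 2284 and 411.9 on Mbd2-/- cDC1 arrays, and stromal markers overlapped too. Epithelial markers overlapped, at 17150 and 4523 on WT arrays 23 and 26 and 11060, 10880 and 5374 on Mbd2-/- arrays 27, 28 and 30. Cox6a2 is also known from plasmacytoid dendritic cells, so 6 of their markers were read after its values had been seen. Siglech was at 6.11 and 5.75 on the WT and 6.21, 5.25 and 6.00 on the Mbd2-/- cDC1 arrays, which overlapped. It was also detected on every macrophage array, between 4.81 and 5.94. Pacsin1 was at 5.57 and 6.55 on the WT and 8.46, 7.60 and 8.73 on the Mbd2-/- cDC1 arrays. The order of these Mbd2-/- arrays was that of Cox6a2. Pacsin1 was also at 6.33 on the WT and 8.08 on the Mbd2-/- T cell array, where Cox6a2 was not detected. Ccr9 was not detected on any cDC1 array. The 6 markers summed to 1147 to 1550 on the WT and 1712 to 2179 on the Mbd2-/- cDC1 arrays. Their sums on monocyte arrays (1202 to 1769) and macrophage arrays (1220 to 1969) overlapped those of both cDC1 genotypes. Klk1 and Bst2 had the highest levels of the 6 on every cDC1 array, and both overlapped between the genotypes. Klk1 was at 10.06 and 8.51 on the WT and 8.97 to 10.12 on the Mbd2-/- arrays. Ly6d did not overlap, at 5.16 and 5.46 on the WT and 5.84 to 6.69 on the Mbd2-/- arrays. The part of these other cells in the result was not tested.

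Complex I made up 7 of the 9 calls in cDC1s. Ndufs7, a core subunit that carries the last iron-sulphur cluster before ubiquinone, was at 10.24 and 10.28 on WT cDC1 arrays and at 10.74, 11.06 and 10.91 on Mbd2-/- arrays. The groups did not overlap, and Mbd2-/- cDC1s were higher by 0.64 ± 0.14 with an adjusted p of 0.0105. Monocyte and macrophage arrays of both genotypes spanned 10.38 to 10.99, between the WT and the highest Mbd2-/- cDC1 arrays.

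The accessory subunits of complex I followed with smaller or less certain changes. Ndufb9 was at 8.63 and 8.71 on WT and at 9.15, 9.40 and 9.91 on Mbd2-/- cDC1 arrays, a difference of 0.82 ± 0.20 with an adjusted p of 0.0187. Ndufb10 was at 9.05 and 9.51 on WT and at 9.70, 10.10 and 10.32 on Mbd2-/- arrays, a difference of 0.76 ± 0.19 with an adjusted p of 0.0207. In both genes every Mbd2-/- array was above both WT arrays, and array 30 was the highest. A further probe of Ndufb10 gave 0.64 with an adjusted p of 0.154. Ndufa8 differed by 0.49 ± 0.12 and Ndufb3 by 0.44 ± 0.12, with adjusted p of 0.0205 and 0.0324.

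Different probes of 2 called genes did not move together. Ndufc2, an accessory subunit of the membrane arm, rose by 0.98 ± 0.26 at a dim probe (adjusted p 0.0254), from 5.00 and 5.20 in WT to 5.49, 5.97 and 6.78, and its brighter probe gave -0.21. Ndufa5 rose by 0.70 ± 0.18 at one probe (adjusted p 0.0220), and its brighter probe gave -0.01. Cox4nb, not a chain subunit, rose by 0.98 ± 0.25 at one probe (adjusted p 0.0210) and gave 0.36 with an adjusted p of 0.352 at the other.

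The 9 calls also depended on single arrays. There were 2 calls without WT cDC1 23 and 2 without Mbd2-/- cDC1 30, 5 without Mbd2-/- cDC1 28, 12 (11 higher) without WT cDC1 26 and 17 without Mbd2-/- cDC1 27. With cDC1s fitted alone no member was called, and with each array scaled to its median over all probes only Cox6a2 was. Of all probes, 0.0953% were then higher and 3.64% lower. That scaling put the median of all probes at -0.37 and of members at -0.21, so relative to all probes members were still higher by 0.16. Both WT cDC1 arrays stood among monocyte columns of the table, and Mbd2-/- arrays 27 and 28 among macrophage columns, so genotype and position cannot be told apart in cDC1s.

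The genotype differences in cDC1s and macrophages were also set against each other. This interaction (the Mbd2-/- over WT difference in cDC1s minus that in macrophages) was called higher for 9 and lower for 3 of 102 members, with a background of 4.2% higher and 4.53% lower. Cox6a2 gave 2.57 ± 0.38 (adjusted p 0.00165) and Ndufc2 1.36 ± 0.31 (adjusted p 0.0154), both more raised in Mbd2-/- cDC1s. Cox7a2l gave -1.94 ± 0.61 (adjusted p 0.0484) and Atp5f1 -1.83 ± 0.57 (adjusted p 0.0472), the direction of a larger rise in macrophages. The calls of Cox7a2l and Atp5f1 were each lost in 13 of 22 alternatives. Without WT macrophage 12 they were -1.70 (adjusted p 0.0751) and -1.39 (adjusted p 0.0243). The count of 12 ranged from 1 without WT cDC1 23 to 17 without Mbd2-/- cDC1 27, and was 3 without Mbd2-/- cDC1 28, 4 without Mbd2-/- cDC1 30 or Mbd2-/- macrophage 19, 5 without Mbd2-/- macrophage 20 or WT macrophage 14, 6 without WT macrophage 12 or Mbd2-/- macrophage 18 and 7 without WT macrophage 11. Cyclic loess left 6 higher and no lower call, against 1.95% and 3.6% of all probes. The median of detected probes left 7 and none, against 2.2% and 1.17%. The median of all probes instead gave 1 higher and 5 lower, against 0.0943% and 5.67%. Against monocytes, 1 of 103 members was called in cDC1s, again Cox6a2 at 2.13 ± 0.38 (adjusted p 0.00794), with a background of 0.619% higher and 0.501% lower. Leaving out single arrays moved that count between 1 and 8, with 8 without Mbd2-/- cDC1 27 and 6 without WT cDC1 26. Between macrophages and monocytes the genotype difference was called for none of 100 members in limma, where the background was 0.0115% higher and 0.0172% lower. At an unadjusted p below 0.05 there were 3, no more than this threshold passes where nothing differs.

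**Figure D2:**
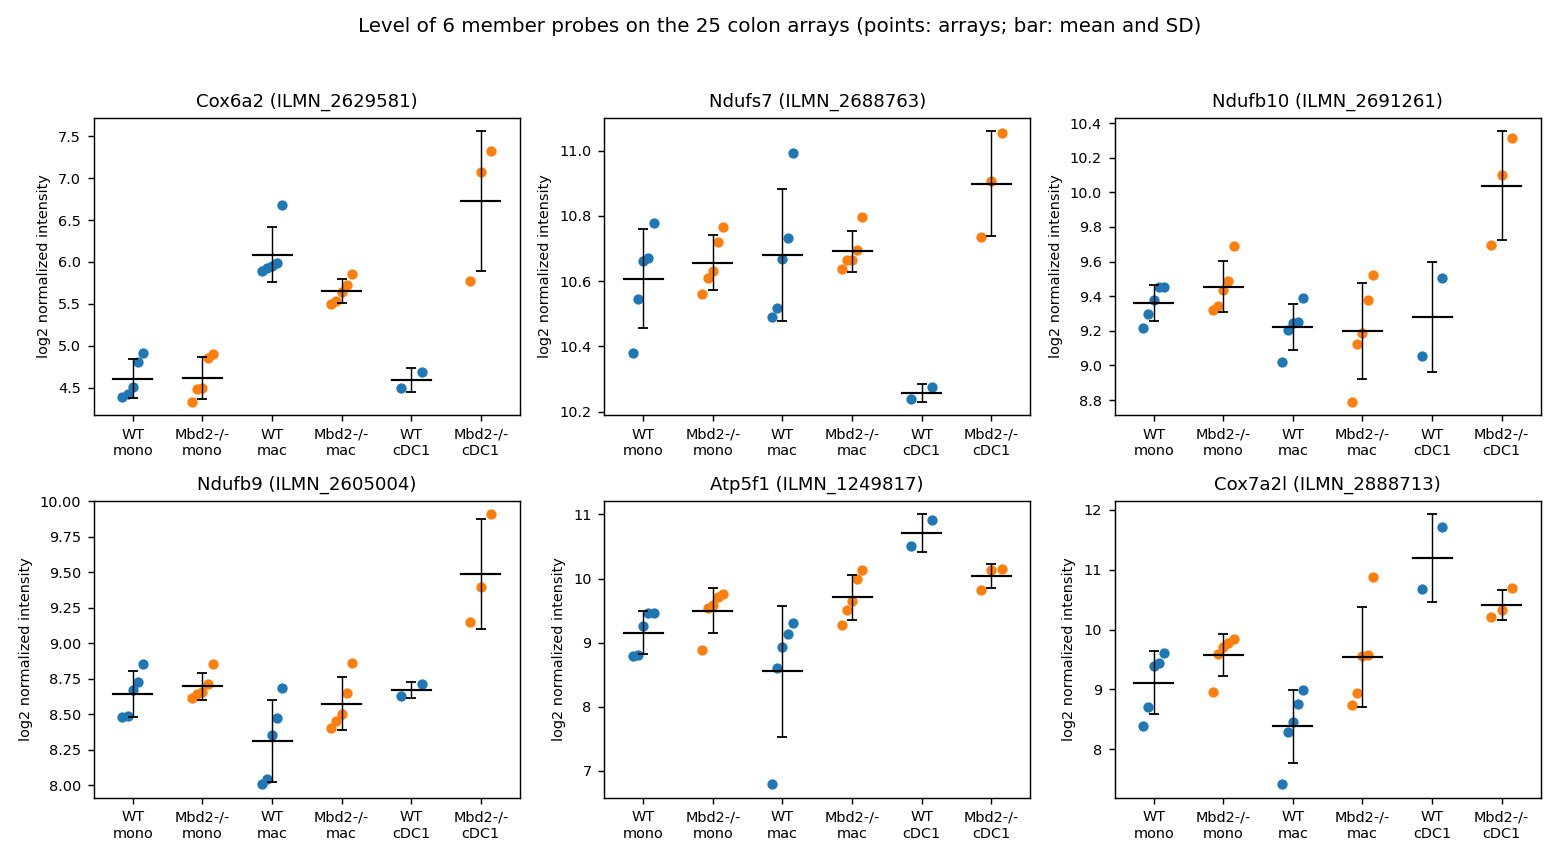
Log2 normalised intensity on the y axis for members named in the text, with 1 point per colon array, grouped on the x axis by cell type and genotype, and bars at the group mean and SD. Cox6a2 is near background in monocytes and WT cDC1s, between 5.49 and 6.68 in macrophages and up to 7.32 in Mbd2-/- cDC1s.

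The second set of comparisons asked how the chain differs between the cell types, averaged over the genotypes. In macrophages against monocytes, 6 member probes were higher and 27 of 22 genes were lower, of 99 tested. All-probe backgrounds were 20.6% higher and 18% lower. The median member difference was -0.11 against 0.00 over all probes, and 28 of 99 members were above 0. The gap to all probes stayed negative under each of the 5 scalings, between -0.22 and -0.10. With the median of all probes 3 members were called higher and 14 lower, against 12.7% and 10.1% of all probes. With that of detected probes the calls were 4 and 47, against 19.4% and 18.5%. Macrophage and monocyte arrays filled different columns of the table, so cell type and position cannot be told apart here.

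The lower members came from every complex. The largest falls were in Atp5o, the oligomycin-sensitivity subunit of the stalk, by -0.67 at one probe, and in the accessory complex I subunits Ndufb11 at -0.60 and Ndufb7 at -0.54, followed by Uqcrb of complex III, a subunit near the ubiquinone site, at -0.50 and by Ndufa3 at -0.47 and Ndufb2 at -0.38. The brightest probe of Atp5o gave 0.03 ± 0.06 and did not pass. Complex III had 3 of 5 probes lower, among them Uqcrb and the core subunit Uqcrc1 at -0.22 ± 0.08. In complex II, 1 of 5 probes passed, that of Sdhb at -0.35 ± 0.13.

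The higher members in macrophages were Cox6a2 at 1.26 ± 0.15 (adjusted p 5.92e-07), Ndufa12l at 0.48, Atp5s at 0.47, Ndufa5 at 0.37, Cox5a at 0.23 ± 0.06 and Ndufa12 at 0.22. Cox6a2 was the only member whose arrays did not overlap between the cell types, since each of 10 macrophage arrays was above each of 10 monocyte arrays. It was called in all 29 alternatives that were run. Atp5b gave 0.05 ± 0.07, Cox4i1 -0.10 ± 0.06, Cox6c 0.06 ± 0.08, Uqcrc2 0.03 ± 0.08 and Ndufv1 -0.05 ± 0.07, none past the test. With WT arrays alone 10 members were called, and 21 with Mbd2-/- arrays alone.

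In cDC1s against macrophages, 49 probes of 38 genes were higher and 4 were lower, of 99 tested, with quantile normalisation, whereas scaling to the median of all probes turned the balance. The background was 27.3% higher and 25.6% lower. The median member difference was 0.25 against -0.01 over all probes. Higher calls held 4 of 5 F1 probes, 9 of 17 probes of the rest of the ATP synthase, 21 of 41 accessory and 4 of 7 core probes of complex I, and 2 of 5 probes each of complexes II and III. In widely expressed complex IV subunits, 4 of 11 probes were higher and 1 lower.

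With each array centred on its median over all probes, 7 members were higher and 30 lower, so 18.9% of the calls were higher instead of 92.5%. Of all probes, 9.92% were then higher and 35.5% lower, and their median was itself at -0.28. With the median taken over probes detected on every array, 53 members were higher and 1 lower, at 98.1%, against 39.6% and 18% of all probes. Cyclic loess gave 47 and 4, against 27.5% and 23.2% of all probes. Relative to the median of all probes, members were higher by 0.26 with quantile normalisation and by 0.03 under both median scalings.

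Some members stood out beyond this. Atp5o was at 8.70 and 8.00 on WT and 8.53, 8.98 and 8.82 on Mbd2-/- cDC1 arrays at one probe, whereas macrophage arrays were between 4.84 and 7.05. All cDC1 arrays lay above all macrophage and monocyte arrays. The difference from macrophages was 2.41 ± 0.22 (adjusted p 3.12e-09), but the brightest probe of the gene gave 0.10 ± 0.07. Cox7a2l was higher at both probes, by 0.87 ± 0.12 and 1.84 ± 0.30. Uqcrc2 was higher by 0.59 ± 0.10 (adjusted p 1.67e-05), and no cDC1 array overlapped the macrophage arrays. Atp5f1 was higher at all 4 probes, by up to 1.74. Atp5j was higher by 1.31 at one probe and Ndufb11 by 1.11.

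The 4 lower members in cDC1s were Cox7a1 at -0.50 ± 0.19, Ndufa5 at -0.48, Atp5k at -0.42 and Cox6b1 at -0.24 ± 0.09. Cox7a1 is a heart and skeletal muscle isoform of complex IV and Atp5k a small membrane subunit of the ATP synthase. Leaving out single arrays gave 39 to 54 calls, and WT arrays alone gave 25, with 16 higher and 9 lower. Within shared table columns, Mbd2-/- cDC1 arrays 27 and 28 had member medians of 0.28 and 0.34 over the Mbd2-/- macrophage arrays beside them, against 0.01 and -0.01 over all probes.

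In cDC1s against monocytes, 30 probes of 26 genes were higher and 9 were lower, of 103 tested, a balance that also turned with scaling to the median of all probes. The background was 27.5% higher and 25.8% lower. The share of members called higher was close to that of all probes. The median member difference was 0.13 against -0.01, a gap of 0.14 that turned to -0.12 under both median scalings. Centring each array on its median over all probes left 3 higher and 48 lower (5.88% of calls higher, against 76.9%). Of all probes, 10.6% were then higher and 35.1% lower. The median over detected probes gave 29 and 14 members (67.4%), against 37.5% and 19.1% of all probes. WT arrays alone gave 18 calls.

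Among the members named here, the largest rises were Atp5o at 1.74 ± 0.22, Cox7a2l at 1.46 ± 0.30, Atp5f1 at 1.36, Cox6a2 at 1.05 ± 0.19 (adjusted p 5.49e-05) and Ndufa12l at 0.94. Cox6a2 was raised here through the Mbd2-/- arrays: with WT arrays alone it was -0.02 with an adjusted p of 0.971. The largest falls were Atp5k at -0.74, Uqcrb at -0.68, Cox6b2 at -0.61 ± 0.16, Cox7a1 at -0.52 ± 0.19, Cox6b1 at -0.32 ± 0.09 and Uqcrh at -0.30. Cox6b2 is known as a testis isoform. Within shared columns, WT cDC1 arrays 23 and 26 had member medians of 0.02 and 0.06 over WT monocytes, against -0.07 and 0.02 over all probes.

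The 2 cDC1 comparisons share the same cDC1 arrays. Of 99 probes tested in both, 27 of 23 genes were higher in cDC1s than in either other cell type, including Atp5a1, Atp5c1, Cox7a2l, Ndufv1, Ndufv2 and Uqcrc2, as counted with quantile normalisation. That is 27.3% of the members, against 22.2% of all 17061 probes tested in both, and since both comparisons use the same cDC1 arrays, joint calls are no independent support. The 3 lower than in either were Atp5k, Cox6b1 and Cox7a1, which is 3.03% of the members against 19.1% of all probes tested in both. Against macrophages and monocytes, Atp5c1, the central rotor subunit of F1, gave 0.40 ± 0.08 and 0.30 ± 0.08. Ndufv1, which binds NADH, gave 0.31 ± 0.08 and 0.26 ± 0.08.

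**Figure D3:**
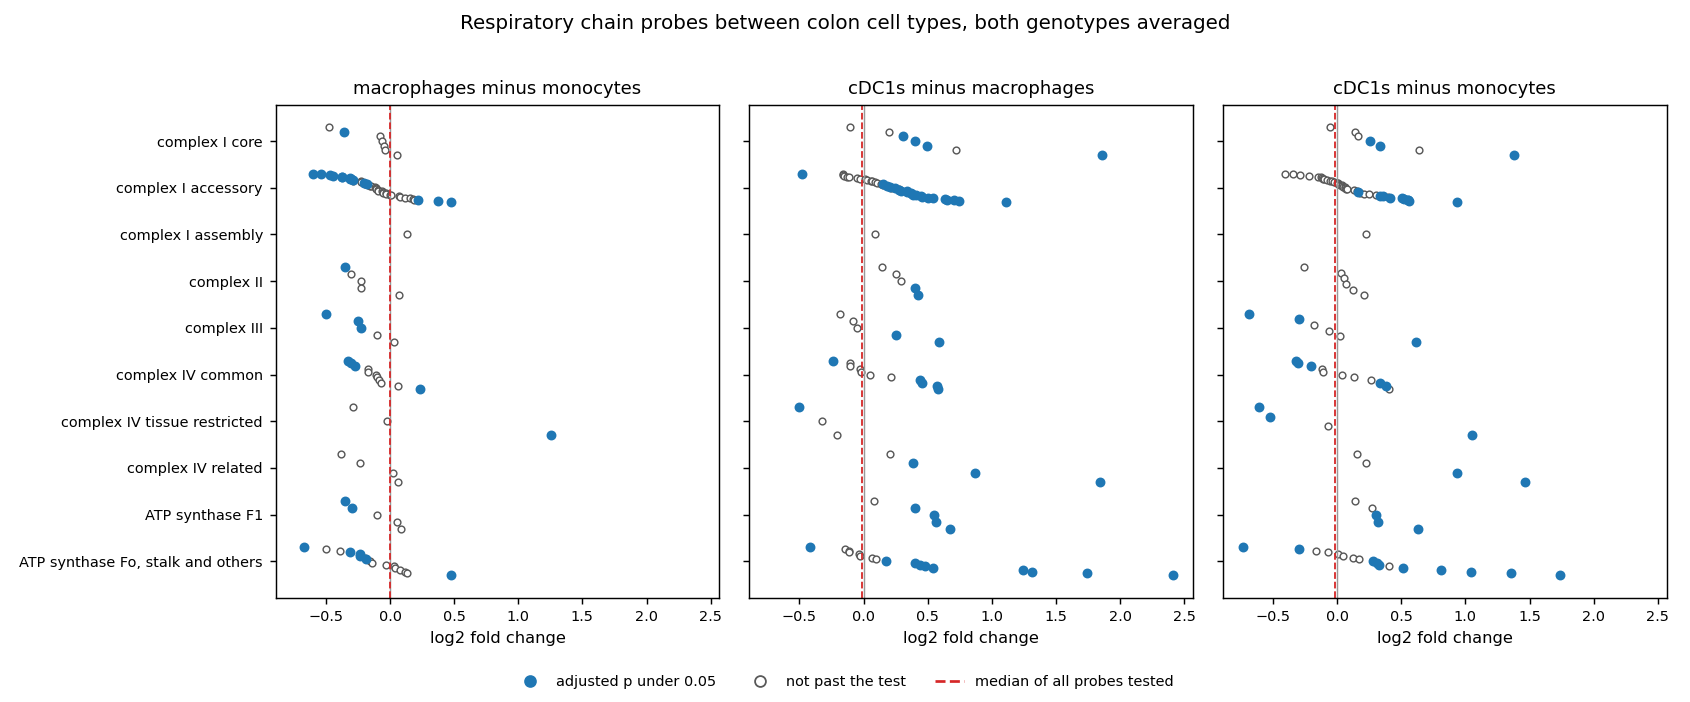
Each point is a member probe, with the log2 difference between 2 cell types on the x axis and the role in the chain on the y axis, 1 panel for each pair of cell types. Filled points passed the test: 6 higher and 27 lower in macrophages against monocytes, 49 and 4 in cDC1s against macrophages, and 30 and 9 in cDC1s against monocytes, where both cDC1 balances turn with scaling to the median of all probes.

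**Figure D4:**
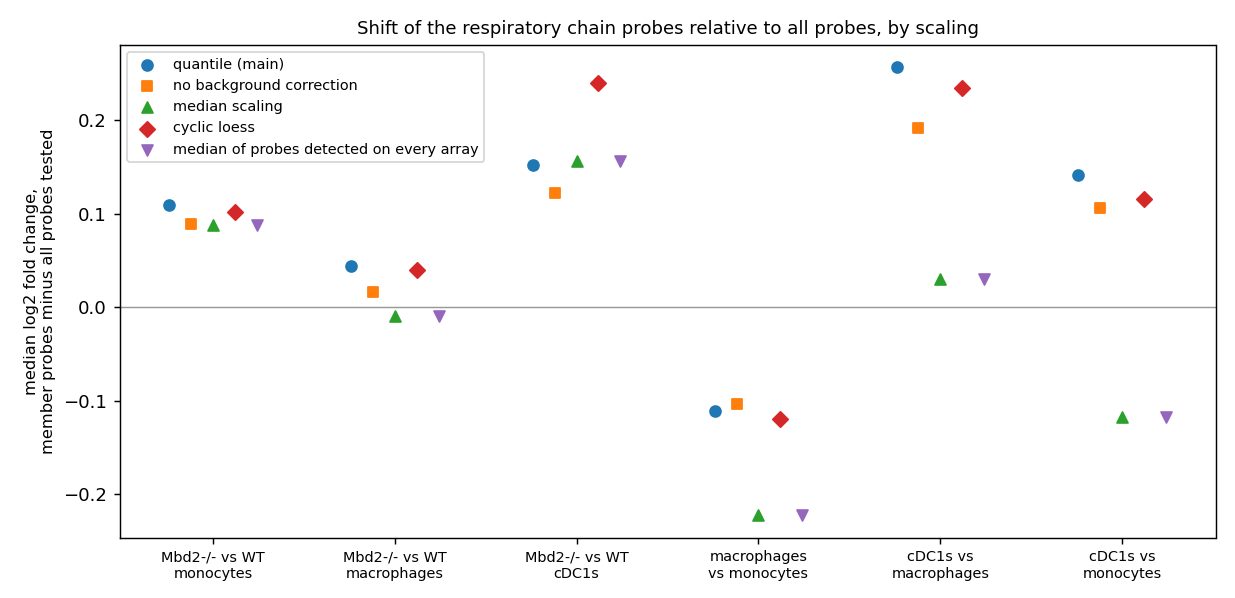
Each symbol is the median log2 fold change of the member probes minus that of all probes tested (y axis), for each comparison on the x axis and each of 5 ways of scaling the arrays. The gap keeps its sign for macrophages against monocytes (-0.22 to -0.10) and turns for cDC1s against monocytes (0.14 to -0.12).

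Isoforms that replace one another in complex IV and in the ATP synthase were compared within each probe. Cox4i1 lay at 12.51 to 12.81 as group means, whereas the probe of its alternative isoform Cox4i2 was detected on 5 of 25 arrays. Cox8b, a muscle isoform, was detected in part of the arrays of 5 groups and on no Mbd2-/- macrophage array. The muscle isoform Cox7a1 was detected on all arrays, with means of 6.28 to 7.14, and varied most in WT macrophages at 7.14 ± 0.69 (SD, n = 5). On arrays 11 to 15 its levels were 7.85, 7.78, 7.18, 6.40 and 6.47, high on arrays 11 to 13 and low on 14 and 15. Its ubiquitous partner Cox7a2 was lower in macrophages than in monocytes by -0.32 ± 0.09 (adjusted p 0.00583). Atp5g2 and Atp5g3, which encode the same c subunit of the rotor ring, were both higher in cDC1s than in macrophages, by 0.48 ± 0.12 and 0.17 ± 0.07.

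Subunits measured poorly were the catalytic subunit Sdha and the Rieske iron-sulphur protein Uqcrfs1. One probe of each was detected on no array. The other Sdha probe was detected on 6 of 25 arrays, 4 of them WT monocytes, and gave -0.12 ± 0.13 between the monocyte genotypes. The other Uqcrfs1 probe was detected on 8 arrays. Between 21 and 22 genes had more than 1 tested probe in each comparison, and in none did probes pass in opposite directions, although the calls were mixed in up to 10 genes.

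The T cell arrays were normalised with the 25 colon arrays and compared without a test. Of 99 member probes detected on both, 14 (14.1%) were above every colon array and 2 (2.02%) below, against 25.9% and 10.5% of all 15800 probes detected on both. The median difference of T cells from the colon groups was 0.27 for members and 0.33 for all probes, and that between the Mbd2-/- and the WT T cell array was -0.04 and -0.02. Cox7a2l was at 11.78 in WT and 11.90 in Mbd2-/- T cells at one probe, above the highest colon array at 11.68. Cox7a1 was at 4.83 and 5.11, below the lowest colon array at 6.14. T cell markers summed to 25350 and 24030 on these arrays, and neutrophil markers to 24040 in WT and 5583 in Mbd2-/-, whose part in these values was not tested.

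As a summary of each array, the median level over members detected on all 27 arrays spanned 10.08 to 10.28 on WT monocyte arrays, and Mbd2-/- monocyte arrays lay above them at 10.33 to 10.55. Macrophages overlapped, at 9.81 to 10.28 (WT) and 10.01 to 10.29 (Mbd2-/-). WT cDC1s had 10.33 and 10.40, Mbd2-/- cDC1s 10.46 to 10.52, and the T cell arrays 10.70 and 10.72. These medians move with the scaling of each array and were not tested.

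**Figure D5:**
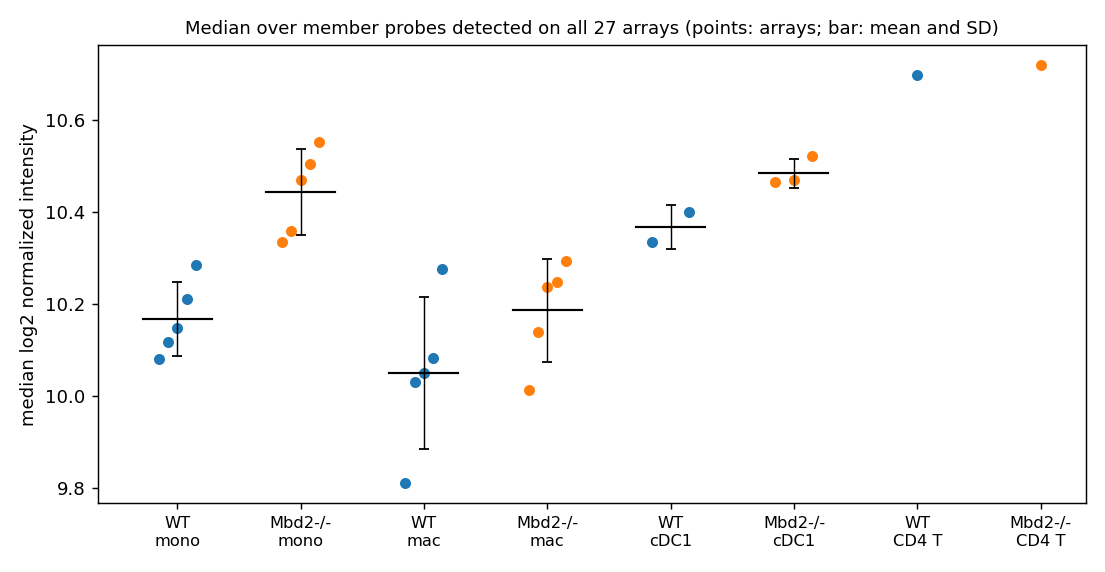
Median log2 normalised intensity of the member probes detected on all 27 arrays (y axis), with 1 point per array, grouped by cell type and genotype on the x axis, and bars at the group mean and SD. Mbd2-/- monocyte arrays (10.33 to 10.55) sit above WT monocyte arrays (10.08 to 10.28), and WT macrophage 12 is the lowest of all at 9.81.

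Other mitochondrial genes put these members in context. Of 107 tested probes of the mitochondrial ribosome, which makes the subunits encoded in mitochondrial DNA, 16 (15%) were higher and none lower in Mbd2-/- cDC1s, against 3.43% and 3.25% of all probes, with a median of 0.28. In cDC1s against macrophages 77 were higher (72%) and 5 lower, against 27.3% and 25.6% of all probes. Against monocytes 68 of 106 were higher (64.2%) and 5 lower, where all probes had 27.5% and 25.8%. For the cytosolic ribosome 36 of 62 (58.1%) were higher and 2 lower against macrophages, and for electron carriers and assembly factors 19 of 31 (61.3%) and none. The directions in cDC1s share the reservation on scaling.

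The carriers and the enzymes of the tricarboxylic acid cycle gave further named changes. In cDC1s against macrophages, cytochrome c (Cycs) was higher by 1.21 ± 0.19 at one probe and Atpif1, the inhibitor of the ATP synthase, by 0.85 ± 0.09. Suclg1, a subunit of succinyl-CoA ligase, was higher by 2.79 ± 0.43 at one probe and malate dehydrogenase Mdh2 by 1.06 ± 0.08, whereas Dlst of the oxoglutarate dehydrogenase was lower by -0.57 ± 0.07. Of 25 cycle probes, 9 were higher (36%, against 27.3% of all probes) and 6 lower (where 25.6% of all probes were). In Mbd2-/- macrophages, 4 of 25 cycle probes were higher (16%, against 3.05% of all probes), but only at some probes of each gene. Idh3g gave 1.91 ± 0.47 at one probe and 0.03 at the other, Suclg1 1.69 ± 0.49 and 0.18, and Pdhb 1.79 ± 0.35, 0.74 and -0.10, of which the last did not pass. Of 31 probes of carriers and assembly factors 4 were higher (12.9%), with Lrpprc at 1.03 ± 0.26 at one probe and -0.06 at the other and Surf1 at 0.85 ± 0.19 and 0.43 (adjusted p 0.116). Without WT macrophage 12 only 1 cycle probe, that of Pdhb at 1.46, and 1 carrier probe, that of Surf1 at 0.61, were called. In Mbd2-/- cDC1s no cycle probe and 1 of 32 carrier probes, Etfb at 0.61 ± 0.14, were called (3.12% of carrier probes higher, against 3.43% of all).

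Transcripts of the mitochondrial DNA itself, which reach these arrays through their own probes, were measured by 7 tested probes. In macrophages against monocytes 3 were higher (42.9%, against 20.6% of all probes) and none lower. The 3 were mt-Co2 at 0.38 ± 0.11, mt-Nd4 at 0.37 ± 0.08 and mt-Nd1 at 0.36 ± 0.10. The nuclear members had a negative median in that comparison. No mitochondrially encoded probe was called for genotype in any of the 3 cell types. Among 15 probes of regulators of mitochondrial biogenesis, 3 were higher (20%) and 3 lower in macrophages against monocytes. These shares were close to the 20.6% and 18% of all probes. In that comparison Esrra was at -0.81 ± 0.20 at one probe and -0.18 (adjusted p 0.0926) at the other, and Nrf1 at -0.28 ± 0.08. The helicase Peo1 was the single call in Mbd2-/- macrophages, at -0.47 ± 0.13 at one probe, whereas its other probe gave 0.29 (adjusted p 0.241), and the call was lost without WT macrophage 12 (adjusted p 0.0515).

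Since Mbd2 binds methylated CpG dinucleotides, the promoters of the members were read from RefSeq (GRCm38.p6) as the 250 bases upstream of the start. Of 62 member symbols with such a window there were 68 windows, with a median of 14 CpG and a range of 1 to 35, against a median of 6 and a range of 0 to 56 over 32851 windows of 27025 symbols. Windows with 10 or fewer CpG were 27.9% of the members' and 64.4% of all. The letters GCATGCGC, the core of the motif of the factor NRF1, stood on either strand in 8.82% of member windows and 2.26% of all. CCGGAAG, read by ETS factors and without overlap in letters with that core, stood in 19.1% and 6.91%. No methylation was measured here.

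The windows of 3 complex I genes called in Mbd2-/- cDC1s show the range of CpG content among them, with each CG in capitals. Ndufs7 (chr10:80249199-80249448, plus strand) holds 20, Ndufb10 (chr17:24724424-24724673, minus strand) holds 7 and Ndufc2 (chr7:97399753-97400002, plus strand) holds 4. Cox6a2 is named only.
Ndufs7: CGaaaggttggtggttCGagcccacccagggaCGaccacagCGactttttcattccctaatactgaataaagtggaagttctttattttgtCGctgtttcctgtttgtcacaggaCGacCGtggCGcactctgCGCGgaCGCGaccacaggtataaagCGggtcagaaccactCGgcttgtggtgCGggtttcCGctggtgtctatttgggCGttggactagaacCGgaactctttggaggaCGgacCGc
Ndufb10: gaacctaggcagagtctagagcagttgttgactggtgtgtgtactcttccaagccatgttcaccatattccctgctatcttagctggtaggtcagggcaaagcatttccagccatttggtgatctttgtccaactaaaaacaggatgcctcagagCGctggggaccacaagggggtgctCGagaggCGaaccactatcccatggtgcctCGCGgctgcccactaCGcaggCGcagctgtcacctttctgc
Ndufc2: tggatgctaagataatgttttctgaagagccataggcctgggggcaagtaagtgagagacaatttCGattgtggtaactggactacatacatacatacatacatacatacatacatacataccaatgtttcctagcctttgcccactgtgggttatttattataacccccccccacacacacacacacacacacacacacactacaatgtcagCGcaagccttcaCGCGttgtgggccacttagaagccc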

How the data were processed

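RNA from sorted cells was hybridised to Illumina MouseWG-6 bead arrays. Per the file headers, the raw intensity table was exported from GenomeStudio with no normalisation and no background subtraction, beside a detection p-value per probe that was made by the authors' export against negative controls. The submitters' processing notes name lumi and limma. The table also held 3 signal columns of no listed sample, which were not used.

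Here the intensities were background-corrected with normexp on 936 negative control probes (offset 16), quantile normalised over 25 colon arrays (27 for T cells and marker sums) and put on the log2 scale in R 4.3.3 with limma 3.58.1. One limma fit over 6 groups gave all contrasts, as in the study's choice of tool. Probes were tested in a comparison if detected at p below 0.05 on a number of arrays equal to the size of the smaller group or more, and p-values were adjusted by Benjamini-Hochberg over all probes tested. Each probe was kept on its own.

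Array numbers do not repeat between groups. Labels do not name the chips, and sets of 6 consecutive table columns stood in for them as a random block. The study describes its arrays as biological replicates from separate experiments. The experiment and the mice behind each array were not used here. The p-values measure the spread between arrays of a group, which can include technical spread. The scripts were tested on simulated data. Named genes were a panel of central subunits and isoform pairs, up to 6 called members per direction and comparison by size, members whose probes disagree in direction and up to 5 called members per interaction. One member gene is not reported by name here. The members and lists were chosen with earlier results of these data known. Other settings tried were no background correction, other scalings, no detection filter, an adjusted p below 0.01, a block, single cell types or genotypes and leaving out arrays.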

Additional observations from a re-analysis of the deposited data

Results flagged for a closer look

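The gap from the highest or lowest array to its neighbour, as a share of its group's range, exceeded the critical value of 0.71 for 5 arrays in 17 of 184 groups tested (45 probes and the member medians in 4 groups of 5). Chance gives about 1 in 20 for independent groups. These probes share arrays and were picked in part by their values here, so no excess is read from the count. WT macrophage 12 accounted for 6 of the 17: it was highest for Cox6a2 (0.87) and lowest for Ndufs3 (0.877), Atp5o (0.876), Ndufs4 (0.772), Atp5f1 (0.724) and Sdhb (0.718). Mbd2-/- monocyte 8 was lowest for Atp5f1 (0.751), Ndufb11 (0.737) and Cox7a2l (0.713). WT monocyte 1 was highest for Atp5j (0.787), Uqcrc2 (0.781) and Cox6a1 (0.74). The others were Sdha highest on Mbd2-/- monocyte 7 (0.888), Cox5a lowest on WT monocyte 4 (0.818), Atp5k lowest on WT macrophage 11 (0.742), Cox4i1 lowest on Mbd2-/- monocyte 9 (0.739) and Atp5c1 highest on Mbd2-/- macrophage 20 (0.714).

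The genotype difference itself differed between cell types, by the interaction term in limma, for 12 member probes between cDC1s and macrophages and for 1 between cDC1s and monocytes. Those named here had among the largest values. Between cDC1s and macrophages they were Cox6a2 (2.57), Cox7a2l (-1.94), Atp5f1 (-1.83) and Ndufc2 (1.36), and between cDC1s and monocytes it was Cox6a2 (2.13).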

How the results depend on the processing

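With quantile normalisation the counts of called members were 0, 4 and 9 for genotype in monocytes, macrophages and cDC1s, 33 for macrophages against monocytes, 53 and 39 for cDC1s against macrophages and monocytes, and 12 and 1 for the interactions of cDC1s with macrophages and monocytes. Scaling each array to its median over all probes gave 1 in macrophages, 1 in cDC1s, 17 for macrophages against monocytes, 6 and 0 for the interactions, and medians of -0.172 in monocytes, -0.211 in cDC1s, -0.2519 for cDC1s against macrophages and -0.3968 against monocytes. That shift follows the median of all probes, which moved to -0.2598, -0.3671, -0.2822 and -0.2791. Scaling to the median of detected probes, chosen after seeing the data, gave 2 in macrophages, 51 for macrophages against monocytes, 7 and 0 for the interactions and a median of 0.3792 in cDC1s. Without background correction the interaction of cDC1s with monocytes had 3 calls, and with cyclic loess that of cDC1s with macrophages had 6. The shares of all probes called moved with these settings as well.

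Without the filter on dim probes the macrophage count was 1 and the interaction with macrophages 5. At an adjusted p below 0.01 the counts were 0 in macrophages, 1 in cDC1s, 19 for macrophages against monocytes, and 1 and 1 for the interactions. Each cell type fitted alone gave 0 in macrophages and 0 in cDC1s. WT arrays alone gave 10 for macrophages against monocytes, 25 for cDC1s against macrophages and 18 against monocytes, and Mbd2-/- arrays alone 21 for macrophages against monocytes. Cox6a2 in cDC1s against monocytes reversed to -0.01701 with WT arrays alone. Settings added after seeing the data gave 0 in macrophages with table columns as a fixed term, 0 within columns 13 to 18, 0 within columns 19 to 24 and 0 without both WT macrophage 12 and Mbd2-/- macrophage 20, where the interaction with macrophages had 6. The cause of these changes was not tested.

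Leaving out each array in turn gave counts of 0 to 0 in monocytes, 1 to 7 in macrophages, 2 to 17 in cDC1s, 29 to 37 for macrophages against monocytes, 39 to 54 and 32 to 45 for cDC1s against macrophages and monocytes, and 1 to 17, 1 to 8 and 0 to 0 for the interactions of cDC1s with macrophages, cDC1s with monocytes and macrophages with monocytes. The medians were 0.07366 to 0.103 in monocytes, -0.05189 to 0.01966 in macrophages and 0.1468 to 0.2304 in cDC1s. The random block of table columns (consensus correlation 0.0183) moved no count by over 1.5 times. No paired analysis was possible because the array numbers do not repeat between groups. Few arrays, above all 2 of WT cDC1s, and probes near background limit what could be called.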
